A study of Mus musculus with 16 samples.

Results

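Mouse brain tumours were split by how strongly they expressed 4 genes of dividing cells. In each of the 16 RNA libraries the proliferation score was the mean log2(value + 1) of Mki67, Top2a, Cdk1 and Ccnb1, the values being normalized read counts. The 8 libraries with the highest score, 8 of 16 in all, were set against the 8 with the lowest. The members were thus chosen by the measured levels of these 4 genes, and the split is not a grouping of the study. The tumours came from C57BL/6 mice carrying Nestin Tv-a, in which the Nestin promoter of neural progenitors drives the receptor for avian RCAS viruses, and p53 fl/fl. All received RCAS-PDGFA and RCAS-Cre on postnatal day 3, together with RCAS-H3.3K27M, which encodes histone H3.3 with methionine in place of lysine 27, or RCAS-H3.3WT, and were untreated until they were collected at endpoint; ages at collection were not analysed here. The high-score side held 4 H3.3K27M libraries (11, 13, 15 and 16) and 4 H3.3WT libraries (1, 6, 7 and 9). The low-score side held 3 H3.3K27M libraries (10, 12 and 14) and 5 H3.3WT libraries (2, 3, 4, 5 and 8). Libraries 10 to 16 were taken as the 7 H3.3K27M tumours and libraries 1 to 9 as the 9 H3.3WT tumours from the sizes of the groups averaged in the deposited table, and which tumour each library came from was not known. The series' design text counts 5 tumours with H3.3K27M and 3 without, which differs from the labels.

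Cells copy their DNA in S phase and divide in mitosis, and genes for each step are transcribed in waves. E2F factors, held in check by RB proteins until G1 ends, drive the genes of DNA replication. A later wave in G2 and mitosis is driven by the MuvB complex with B-MYB and FOXM1, which reaches many promoters through a short element called CHR, often beside CCAAT boxes bound by NF-Y. Mki67 encodes the Ki-67 protein that coats mitotic chromosomes and marks cycling cells in tumour pathology. Top2a encodes the topoisomerase that untangles sister chromatids, Cdk1 the kinase that starts mitosis, and Ccnb1 its partner cyclin B1.

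The promoters of the 4 genes are shown because these genes define the split, each as 250 bases before to 50 bases after the annotated start (RefSeq, GRCm38.p6). All 4 lie on the minus strand, and capitals mark CHR letters (TTTGAA or TTCGAA, on either strand) and CCAAT on either strand. The windows are chr7:135716330-135716629 for Mki67, chr11:99024140-99024439 for Top2a, chr10:69352863-69353162 for Cdk1 and chr13:100786437-100786736 for Ccnb1.
Mki67: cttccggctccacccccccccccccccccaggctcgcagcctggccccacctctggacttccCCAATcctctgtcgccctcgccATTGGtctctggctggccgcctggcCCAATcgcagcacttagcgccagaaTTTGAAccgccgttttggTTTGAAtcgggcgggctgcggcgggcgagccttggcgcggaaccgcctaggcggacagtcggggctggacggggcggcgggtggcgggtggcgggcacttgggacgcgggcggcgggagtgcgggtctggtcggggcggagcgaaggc
Top2a: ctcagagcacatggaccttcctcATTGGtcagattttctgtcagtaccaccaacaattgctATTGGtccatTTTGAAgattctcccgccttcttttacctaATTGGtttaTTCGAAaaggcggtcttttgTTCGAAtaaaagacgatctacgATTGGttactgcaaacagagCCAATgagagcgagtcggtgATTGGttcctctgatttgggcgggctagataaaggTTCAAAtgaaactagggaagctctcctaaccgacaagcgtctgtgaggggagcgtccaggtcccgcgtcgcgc
Cdk1: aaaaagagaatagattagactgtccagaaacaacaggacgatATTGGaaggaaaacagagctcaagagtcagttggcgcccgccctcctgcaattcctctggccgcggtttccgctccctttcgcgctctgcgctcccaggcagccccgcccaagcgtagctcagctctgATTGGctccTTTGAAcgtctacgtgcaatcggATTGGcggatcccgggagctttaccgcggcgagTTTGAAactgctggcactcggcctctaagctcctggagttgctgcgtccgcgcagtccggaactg
Ccnb1: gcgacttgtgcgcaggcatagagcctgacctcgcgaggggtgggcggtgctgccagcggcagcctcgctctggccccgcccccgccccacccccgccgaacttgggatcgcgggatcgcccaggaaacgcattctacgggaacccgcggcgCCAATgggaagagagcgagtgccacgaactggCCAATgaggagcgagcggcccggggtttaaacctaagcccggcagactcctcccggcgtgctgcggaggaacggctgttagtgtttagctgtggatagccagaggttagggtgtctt
Mki67 held 2 CHR matches at 116 and 98 bases before the start, Top2a held 4 and Cdk1 held 2, while the Ccnb1 window held 2 CCAAT matches and no CHR letters. CCAAT was present in 4 of the 4 windows. Over all 27025 promoters of this length, 19.4% held a CHR match and 37.9% a CCAAT match. A match is a description of letters and not a measured binding site.

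The 4 genes did not order the tumours in the same way. The score ran from 12.21 (library 13) to 12.60 (library 16) on the high side and from 10.99 (library 3) to 12.08 (library 5) on the low side. It averaged 12.37 ± 0.147 in the high-score libraries and 11.75 ± 0.361 in the low-score libraries (SD, n = 8 each), and the gap at the boundary was 0.136 of a full range of 1.61. Mki67 ran from 8644 through a median of 11671 to 14255 normalized counts in the high-score libraries, against 3733, 7646 and 10319 in the low-score libraries. Library 3 stood lowest of the 16 for each of the 4 genes. For Cdk1 the 8 high-score libraries held 4572, 3711, 4210, 3579, 5111, 3890, 4725 and 3112 normalized counts (libraries 16, 11, 15, 7, 6, 9, 1 and 13). Against these, the 8 low-score libraries held 4199, 3792, 5060, 2765, 2720, 2645, 2878 and 2164 (libraries 5, 12, 8, 14, 2, 10, 4 and 3). The 2 sides therefore overlapped widely for Cdk1, with low-score library 8 second highest of the 16. Ccnb1 averaged 1300.1 ± 136 normalized counts in the high-score libraries and 861.6 ± 208 in the low-score libraries. Top2a averaged 13477 ± 3527 in the high-score libraries and 8044 ± 2490 in the low-score libraries. Only 3 of the high-score libraries (9, 15 and 16) ranked in the upper 8 for all 4 genes, and 4 of the low-score libraries (2, 3, 4 and 10) for none. These values chose the groups, and no test was made on them.

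**Figure D1:**
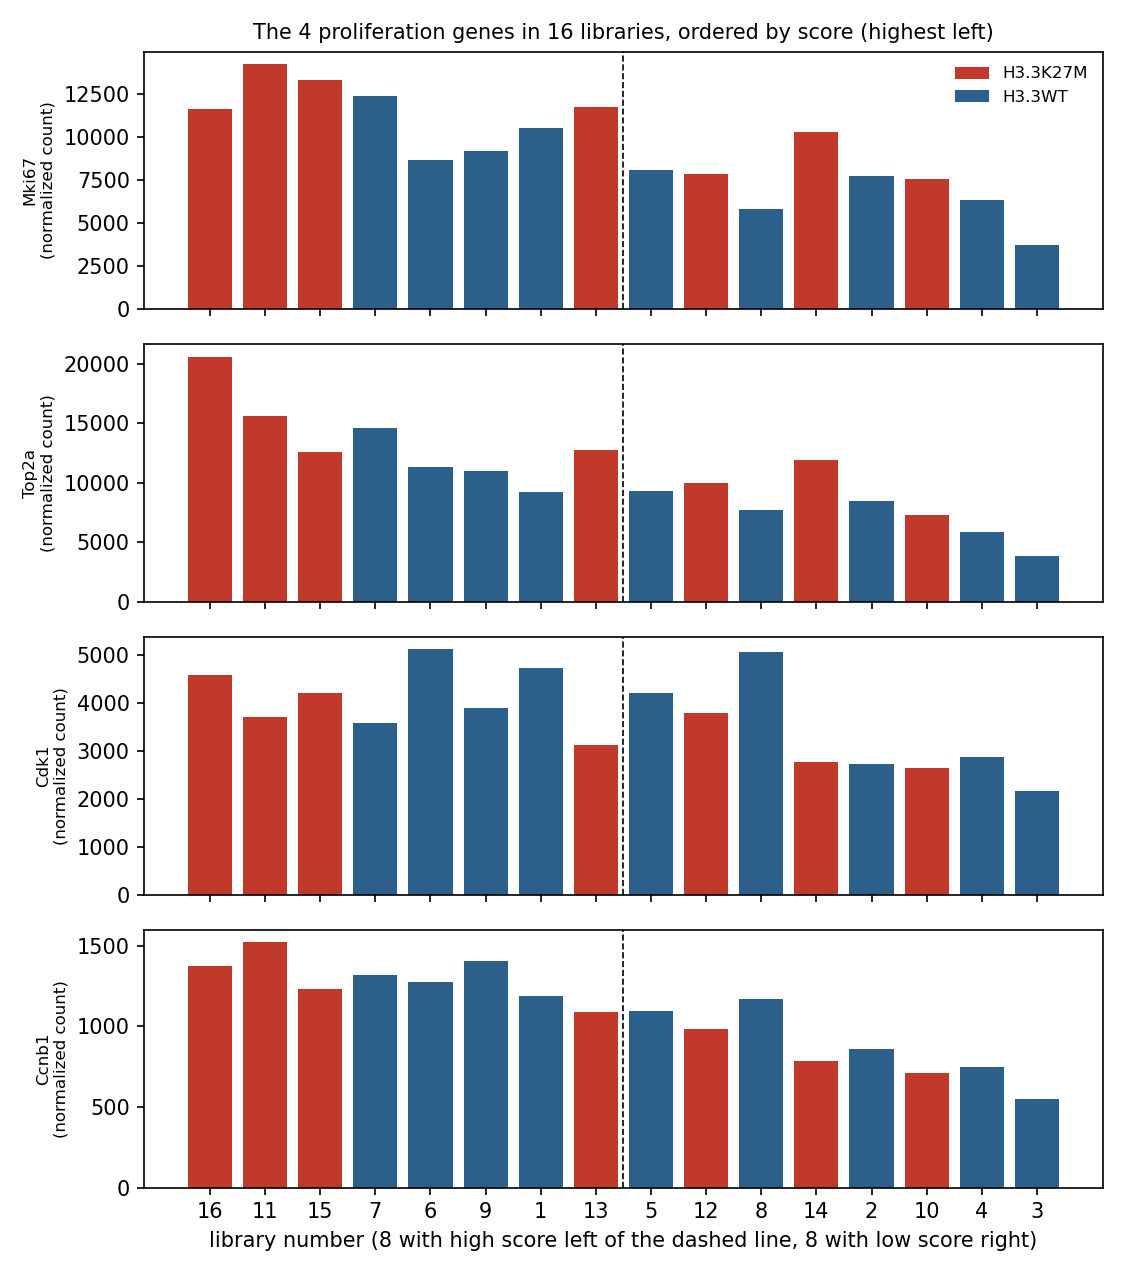
Normalized counts of the 4 proliferation genes (y axes) in each library, ordered by score from the highest at left (x axis), with bars coloured by genotype group. Mki67 and Top2a fall away towards the right more evenly than Cdk1, for which low-score library 8 reaches 5060.

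Libraries 8 and 14 show the disagreement most plainly. Library 8 ranked second for Cdk1 but fifteenth for Mki67, with 5833 normalized counts, while library 14 ranked seventh for Mki67 with 10319 and thirteenth for Cdk1. These libraries also stood at the ends of a trend with exon length, measured as the slope of each gene's deviation from its mean over libraries per doubling of exon length. The slope was -0.31 in library 8, the lowest of the 16, and 0.23 in library 14, the highest. The summed exons of Mki67 and Top2a span 10061 and 9013 bases, and those of Cdk1 and Ccnb1 span 4934 and 4217 bases. The part of exon length in the order of the libraries was not tested.

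Depth, sex and genotype were spread over both sides. The high-score libraries held 30377560 to 41730692 recovered reads and the low-score libraries 11439144 (library 8) to 39638684. Library 8 is therefore the least precise for low genes. The female-specific Xist exceeded the Y-linked Ddx3y in 4 high-score and 5 low-score libraries. H3.3K27M libraries numbered 4 on the high side and 3 on the low side (two-sided exact permutation test over libraries, p = 1). The slope of gene levels on GC content averaged -0.0059 per percent in the high-score libraries and 0.0059 in the low-score libraries (exact permutation p = 0.035, Benjamini-Hochberg adjusted p = 0.175 over 5 such measures). The slope on exon length averaged 0.048 per doubling in the high-score libraries and -0.048 in the low-score libraries (exact permutation p = 0.191, adjusted p = 0.421). The defining markers of the tumours were high on both sides: the PDGF receptor gene Pdgfra ran from 38245 to 188416 normalized counts in the high-score libraries and from 31738 to 250718 in the low-score libraries. The glial transcription factor gene Olig2 ran from 12423 to 42696 in the high-score libraries and from 16396 to 49533 in the low-score libraries. In RNA from whole tumours, fewer cells of a type and less RNA per cell cannot be told apart.

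Across all other genes, no gene passed the test. limma with genotype group as covariate, fitted to 15003 genes, called 0 genes at an adjusted p under 0.05 (percent called 0%), with 0.260 as the smallest adjusted p. Before adjustment, 395 genes with a p under 0.05 lay higher in the high-score libraries (2.63% of those tested) and 301 lay lower (2.01%), 696 in all (4.64%), against 750 expected by chance. On reads recovered from the values, edgeR's quasi-likelihood test also called 0 genes, while DESeq2's Wald test called 21 higher and 1 lower. With the score used as a continuous measure in place of the split, limma called 48 genes with a positive and 2 with a negative slope. The 2, named after their values were seen, were Smox and Chst8, and the 1 lower by DESeq2 was Fibp. The genes with small p-values were concentrated in the cell cycle. Of 252 tested members of the 10 cell cycle lists, 90 lay higher at an unadjusted p under 0.05 and 0 lower, against 305 higher and 301 lower among the other 14751 genes. Of the 50 genes with the smallest p, 30 stood on a cell cycle list. Cell cycle genes share their regulation with the 4 genes that made the split, so their order is a description of the split and supports nothing further.

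Genes of mitosis lay higher in the high-score libraries most evenly. All 43 measured genes of the kinetochore, centromere and spindle list lay above 0, with a median log2 fold change of 0.50, where 49.2% of all genes tested lay above 0 and 50.8% below, and their median was -0.0048. Of these 43 genes, 31 had an unadjusted limma p under 0.05 (72.1%), where 2.63% of all genes tested lay higher at that threshold. Leaving out any 1 library kept the count at 43 and the median between 0.48 and 0.59. The list of G2/M cyclins, kinases and regulators had 26 of 28 members above 0 and a median of 0.41. The median exon length was 5681 bases in the kinetochore list and 3531 in the G2/M list, against 4422 over all genes tested. It was 5771 for genes higher at an unadjusted limma p under 0.05 and 3690 for those lower. With the exon length trend removed both list medians kept their sign, and the part of exon length was not otherwise tested. The mean log2 levels of both lists overlapped between the sides. For the G2/M list low-score library 8 held 10.44, against 10.24 to 10.55 in the high-score libraries. For the kinetochore list the low side reached 10.29 (library 5) and the high side began at 10.28 (library 1). None of these genes passed the limma test, so the values are given as sizes with their errors.

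Kif18a, a kinesin that damps chromosome movement at metaphase, ran from 850 through a median of 1048 to 1186 normalized counts in the high-score libraries, against 464, 640 and 877 in the low-score libraries. Among the low-score libraries, only library 14 (877) lay within the range of the high-score libraries. Its log2 fold change was 0.70 ± 0.13 (SE; limma adjusted p = 0.260; DESeq2 adjusted p = 0.000305). Hmmr, a spindle assembly protein also known as a hyaluronan receptor, had a log2 fold change of 0.81 ± 0.16 (limma adjusted p = 0.260). For Bub1b, the spindle checkpoint kinase BubR1, the high-score libraries ran from 1892 to 3452 normalized counts and the low-score libraries from 984 to 2061. Plk4, the kinase that starts centriole duplication, averaged 1317 ± 224 in the high-score libraries and 766 ± 255 in the low-score libraries. Its fold change was 0.77 ± 0.16 with a limma adjusted p of 0.260. Cdc20, which activates the anaphase-promoting complex, averaged 3169 ± 550 in the high-score libraries and 2130 ± 299 in the low-score libraries. Aurkb, the kinase of the chromosomal passenger complex, averaged 1927 ± 283 in the high-score libraries and 1264 ± 255 in the low-score libraries.

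Complete separation of the 2 sides was rare. The 8 high-score libraries all lay above the 8 low-score libraries for 6 of the 15003 genes (0.04%) and all below for 1 (0.00667%). The 6 were Prr11, Ckap2l, Nusap1, Ckap2, Dlgap5 and Cenpq, named here after their values were seen, and the 1 below was 2210406O10Rik. Of the 6, 5 encode proteins of the mitotic spindle or the centromere, and Prr11 encodes a proline-rich protein needed for cell cycle progression in human cells. Prr11 held 1967, 1389, 1523, 1846, 1648, 1146, 1215 and 1566 normalized counts in the high-score libraries (16, 11, 15, 7, 6, 9, 1 and 13). The low-score libraries (5, 12, 8, 14, 2, 10, 4 and 3) held 981, 850.0, 875, 1027, 1010.3, 810, 754 and 732. The lowest high-score library thus held 1.12 times the level of the highest low-score library. Its log2 fold change was 0.78 ± 0.14 (SE), the smallest p of all genes tested, with an adjusted p of 0.260 by limma and 0.000291 by DESeq2. Ckap2l, a protein of the mitotic spindle, ran from 1927 through 2610 to 4351 in the high-score libraries, against 1027, 1653 and 1796 in the low-score libraries. Nusap1, which bundles spindle microtubules, ran from 2396 through 2833 to 3537 in the high-score libraries, against 1042, 1877 and 2225 in the low-score libraries. Their log2 fold changes were 0.83 ± 0.16 for Ckap2l and 0.72 ± 0.15 for Nusap1, with limma adjusted p-values of 0.260 and 0.279. Dlgap5 and Cenpq separated the sides narrowly. Their lowest high-score library held 1.002 and 1.006 times the level of the highest low-score library. The gene 2210406O10Rik ran from 19.5 to 30.5 normalized counts in the high-score libraries and from 32.9 to 56.8 in the low-score libraries, with an adjusted p of 0.954.

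**Figure D2:**
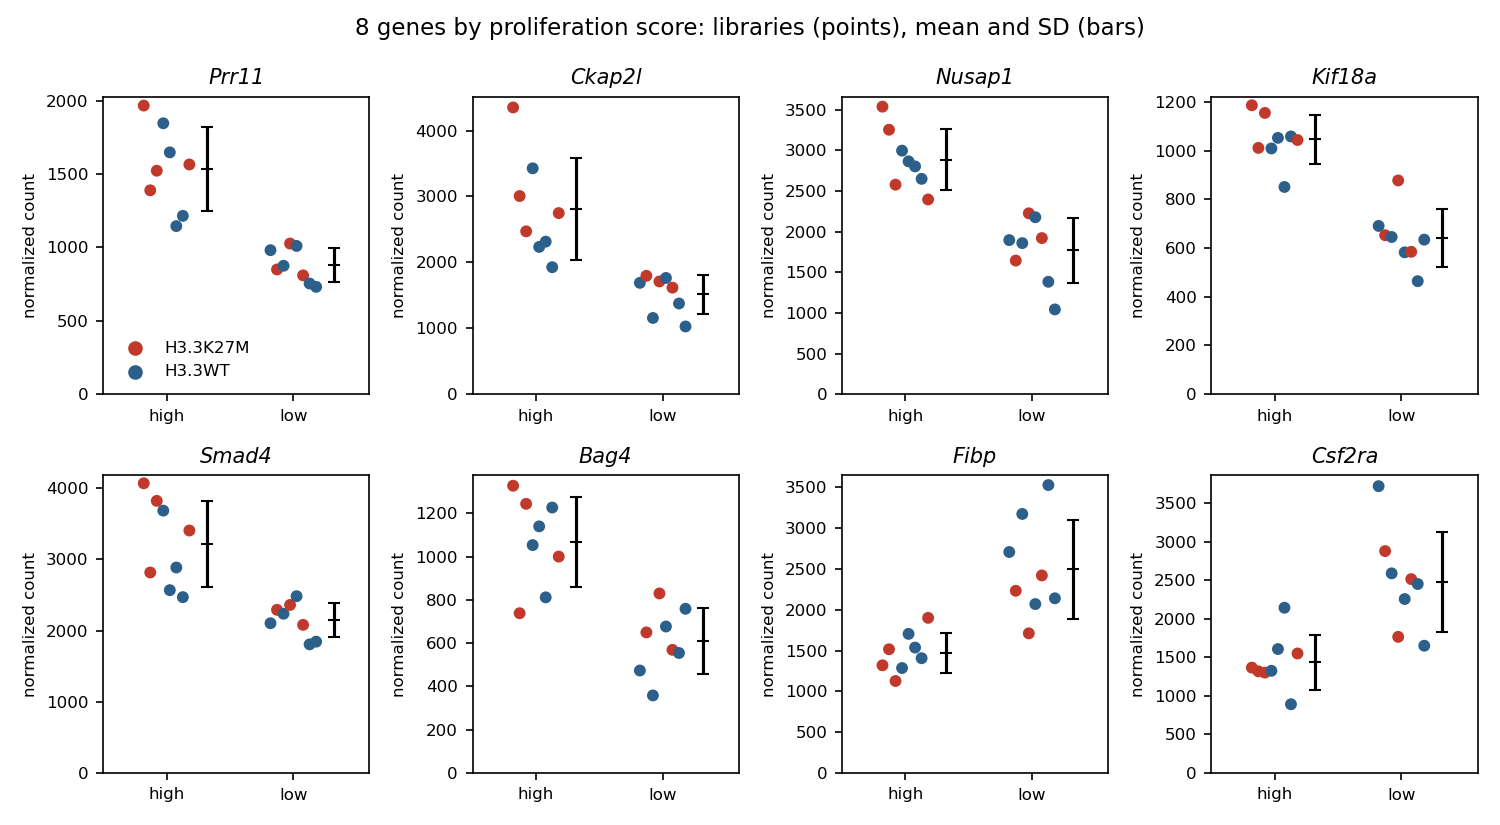
Normalized counts (y axes, starting at 0) of 8 genes in the high-score and low-score libraries (x axes), with 1 point a library coloured by genotype group and the mean and SD of each side in black. Prr11, Ckap2l and Nusap1 separate the sides completely, while Kif18a, Smad4, Bag4, Fibp and Csf2ra overlap.

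The promoters of Ckap2l and Prr11 are shown because these genes had the smallest p of all genes tested and separated the sides. Both lie on the minus strand (RefSeq, GRCm38.p6), at chr2:129297163-129297462 for Ckap2l and chr11:87108665-87108964 for Prr11, with CHR and CCAAT letters again in capitals.
Ckap2l: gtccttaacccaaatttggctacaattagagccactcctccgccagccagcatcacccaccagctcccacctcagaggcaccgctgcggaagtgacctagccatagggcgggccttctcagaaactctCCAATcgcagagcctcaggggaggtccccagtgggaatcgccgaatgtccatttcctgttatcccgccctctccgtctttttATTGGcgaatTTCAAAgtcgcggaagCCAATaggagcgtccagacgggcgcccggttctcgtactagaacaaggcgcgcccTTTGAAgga
Prr11: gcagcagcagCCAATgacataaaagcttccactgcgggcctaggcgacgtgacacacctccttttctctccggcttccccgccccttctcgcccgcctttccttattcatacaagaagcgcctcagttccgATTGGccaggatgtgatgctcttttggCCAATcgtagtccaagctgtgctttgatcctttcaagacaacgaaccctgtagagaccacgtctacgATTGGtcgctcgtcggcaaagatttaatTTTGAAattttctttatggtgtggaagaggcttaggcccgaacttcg
The Ckap2l window held a CHR match 30 bases before the start and another 42 bases after it. The Prr11 window held a CHR match beginning at the fourth base of the transcript and 4 CCAAT matches. Neither motif was found in the window of Kif18a, which held instead 1 match to an E2F motif (TTTCCCGC, TTTGGCGC, TTTCGCGC or TTTGCCGC, on either strand). CHR matches were found in 26 of 38 promoters of the kinetochore, centromere and spindle list (68.4%) and in 13 of 21 of the G2/M list (61.9%). In the DNA replication and G1/S list they were found in 6 of 31 (19.4%), against 13.7% of the 11489 promoters of genes tested. E2F matches were found in 12 of 31 promoters of the G1/S list (38.7%), 3 of 38 of the kinetochore list (7.89%) and 0 of 21 of the G2/M list, against 3.84% of the promoters of genes tested. TTCGAA is its own reverse complement and was counted once. Whether any match is used in these tumours was not measured.

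Genes of DNA replication lay higher too, but less evenly. Of the 41 genes of the DNA replication and G1/S list 40 lay above 0, with a median of 0.35. Without library 3, which held the lowest levels of this list, the median was 0.23. The list levels overlapped at the upper end too. Low-score library 12 held a mean log2 level of 10.51, against 10.09 to 10.58 in the high-score libraries. Exo1, an exonuclease of mismatch repair and resection, ran from 516 through 937 to 1102 normalized counts in the high-score libraries, against 175 (library 3), 495 and 820 in the low-score libraries. The sides overlapped, and its log2 fold change was 0.80 ± 0.26 (limma adjusted p = 0.954). Prim2, the large subunit of primase, averaged 1857 ± 236 in the high-score libraries and 1405 ± 187 in the low-score libraries. Chaf1a, which places histones on new DNA, had a log2 fold change of 0.63 ± 0.20. Pole, the leading-strand polymerase, had one of 0.60 ± 0.20. In nucleotide synthesis 18 of 19 genes lay above 0 with a median of 0.25. Rrm1, the large subunit of ribonucleotide reductase, averaged 7099 ± 866 in the high-score libraries and 5450 ± 1172 in the low-score libraries. Shmt1, which feeds folate units into thymidylate, ran from 946 to 3727 in the high-score libraries and from 912 to 1643 in the low-score libraries. Its high values lay in libraries 1, 15 and 16, and library 13, also on the high side, held the second lowest level of all 16.

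Most genes of repair and chromosome structure lay higher too. Of 34 genes of homologous recombination and the Fanconi anaemia pathway 30 lay above 0, with a median of 0.37. Blm, the helicase that dissolves recombination intermediates, averaged 788 ± 155 normalized counts in the high-score libraries and 497 ± 134 in the low-score libraries. Fancd2, the protein ubiquitinated at stalled forks, had a log2 fold change of 0.67 ± 0.23, and Fanca, of the core complex, one of 0.58 ± 0.19. In the condensin and cohesin list 16 of 17 genes lay above 0, with a median of 0.27, which was 0.10 when the split was made without Mki67. The sides overlapped in this list's mean log2 level, which was highest in low-score library 14 (11.92, against at most 11.74 in the high-score libraries). Ncapg, a condensin subunit, ran from 878 to 1603 in the high-score libraries and from 375 to 1297 in the low-score libraries. Esco2, which locks cohesin on sister chromatids in S phase, averaged 648 ± 96.6 in the high-score libraries and 409 ± 130 in the low-score libraries. In the list of chromatin copying and Polycomb complex PRC2 genes, 20 of 21 lay above 0 with a median of 0.20. Its members with the smallest p were Phf19 (0.51 ± 0.15), a PRC2 accessory protein, Asf1b (0.54 ± 0.17), a histone chaperone, and Dek (0.56 ± 0.18), a chromatin protein.

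The regulators of both waves were mostly higher as well. In the list of E2F, RB, MYB and FOXM1 regulators 21 of 26 genes lay above 0, with a median of 0.25. Foxm1, the transcription factor of the mitotic wave, ran from 2628 through 3848 to 5439 normalized counts in the high-score libraries, against 1924, 2496 and 3564 in the low-score libraries. Its log2 fold change was 0.57 ± 0.15 (limma adjusted p = 0.592). E2f7, a repressor that closes the E2F wave, averaged 765 ± 192 in the high-score libraries and 463 ± 162 in the low-score libraries. Rbl1, the RB relative p107, had a log2 fold change of 0.62 ± 0.21. Lin9, a core subunit of MuvB, had one of 0.52 ± 0.18. Most inhibitors of the cyclin-dependent kinases lay above 0 too, 6 of 8, with a median of 0.18 that was 0.046 without library 1. Cdkn1b, which encodes p27, averaged 4518 ± 594 in the high-score libraries and 3667 ± 706 in the low-score libraries, a log2 fold change of 0.30 ± 0.13 (limma adjusted p = 0.954). Cdkn3, a phosphatase of CDK enzymes that is itself made in mitosis, had a log2 fold change of 0.54 ± 0.30.

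Most of the measured replication-dependent histone genes, which are expressed in S phase, lay below 0 instead. They make the histones for new chromatin, and their transcripts mostly lack the poly(A) tail that mRNA library kits select for. Of 29 on the list, 15 were measured. Of these, 3 lay above 0, and the median was -0.20. In this fit 0 of the 15 had an unadjusted limma p under 0.05 in either direction. Within H3.3WT libraries alone 11 of the 15 lay above 0, and within H3.3K27M libraries 3. Hist1h4i, for histone H4, held 59.8, 65.1, 57.3, 57.8, 291, 248, 294 and 112 normalized counts in the high-score libraries (16, 11, 15, 7, 6, 9, 1 and 13). It held 204, 419, 264, 111, 181, 203, 107 and 84.9 in the low-score libraries (5, 12, 8, 14, 2, 10, 4 and 3). The sides overlapped throughout, with 3 of the 4 values over 260 on H3.3WT libraries of either side and the fourth in library 12. Its log2 fold change was -0.53 ± 0.44 (limma adjusted p = 0.954). Without library 12, 9 of the 15 genes lay above 0 and the median was 0.026. Hist1h3d (-0.35 ± 0.49) and Hist1h2ac (-0.27 ± 0.42) had negative fold changes and Hist1h1e (0.35 ± 0.54) a positive one, each smaller than its SE.

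**Figure D3:**
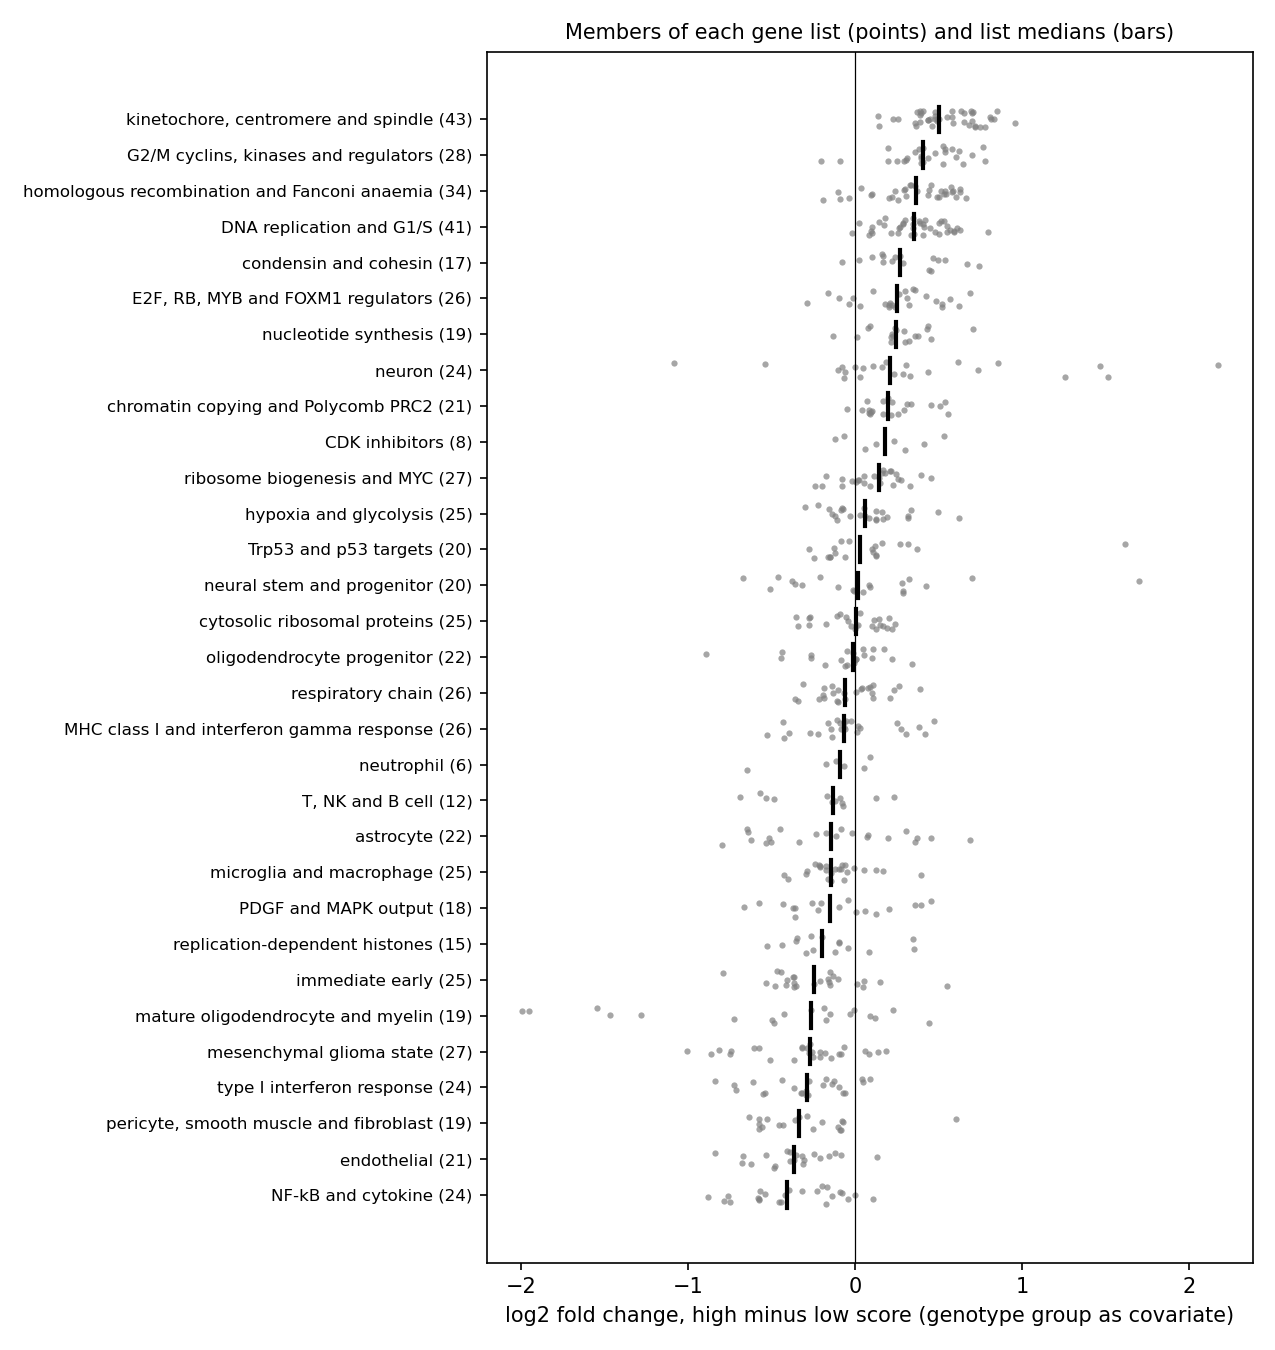
Log2 fold change, high minus low score, of each measured member (points) of 31 gene lists (y axis, number of members in parentheses), with the list median as a black bar. The mitosis and replication lists lie right of 0, up to a median of 0.50, and the vascular and NF-kB lists lie left of it, down to a median of -0.41.

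Outside the cell cycle lists, the 8 genes with the smallest p on the higher side held further genes known from division. Ticrr, which starts replication origins, averaged 724 ± 179 normalized counts in the high-score libraries and 420 ± 155 in the low-score libraries. Kif14, a kinesin of cytokinesis, averaged 956 ± 283 in the high-score libraries and 536 ± 152 in the low-score libraries. Fam83d, which brings a kinase to the spindle, had a log2 fold change of 0.57 ± 0.15. Prr11, given above, was the fourth. The other 4 are not cell cycle genes by name. Smad4, the shared partner of SMAD factors in TGF-beta and BMP signalling, ran from 2469 through 3145 to 4068 in the high-score libraries, against 1806, 2169 and 2482 in the low-score libraries. The sides overlapped only by library 1 (2469) and library 2 (2482). The log2 fold change of Smad4 was 0.54 ± 0.12 (limma adjusted p = 0.345; DESeq2 adjusted p = 0.0173). Bag4, a co-chaperone that binds death receptors, averaged 1067 ± 210 in the high-score libraries and 608 ± 153 in the low-score libraries (0.81 ± 0.19; limma adjusted p = 0.387). Mex3c, an RNA-binding ubiquitin ligase, had a log2 fold change of 0.49 ± 0.12, and Hn1l one of 0.62 ± 0.16.

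The 8 genes on the lower side came from unrelated functions. Fibp, which binds acidic fibroblast growth factor inside cells, held 1319, 1516, 1126, 1286, 1704, 1536, 1406 and 1901 normalized counts in the high-score libraries (16, 11, 15, 7, 6, 9, 1 and 13). The low-score libraries (5, 12, 8, 14, 2, 10, 4 and 3) held 2707, 2232, 3174, 1711, 2069, 2421, 3528 and 2140. Only library 13 on the high side and library 14 on the low side crossed. The log2 fold change of Fibp was -0.72 ± 0.15 (limma adjusted p = 0.279; DESeq2 adjusted p = 0.0127). Csf2ra, a receptor chain for the myeloid growth factor GM-CSF, averaged 1439 ± 357 in the high-score libraries and 2480 ± 651 in the low-score libraries, and its limma adjusted p was 0.420. Col5a3, a collagen chain, had a log2 fold change of -0.72 ± 0.19. Pcsk1n, which inhibits a prohormone convertase, averaged 12875 ± 5118 in the high-score libraries and 20966 ± 5391 in the low-score libraries. Mboat2, a lipid acyltransferase, had a log2 fold change of -0.74 ± 0.20. Grik5, a kainate receptor subunit, ran from 5954 to 10786 in the high-score libraries and from 9674 to 12788 in the low-score libraries. Abca7, a lipid transporter, and Srsf5, a splicing factor, had log2 fold changes of -0.51 ± 0.14 and -0.55 ± 0.16.

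Growth and energy lists had medians closer to 0. In the ribosome biogenesis and MYC list 21 of 27 genes lay above 0 with a median of 0.14. Without library 16 the median was 0.080, and without library 15 the count was 17. Myc itself averaged 7283 ± 3135 normalized counts in the high-score libraries and 5111 ± 1004 in the low-score libraries (0.40 ± 0.24; limma adjusted p = 0.954). Nop16, a nucleolar protein of ribosome assembly, had a log2 fold change of 0.33 ± 0.15. The cytosolic ribosomal proteins had 14 of 25 members above 0 and a median of 0.0091, and the sign of that median changed in 12 of 40 alternatives. In the respiratory chain 12 of 26 lay above 0, with a median of -0.063 whose sign changed in 4 of 40 alternatives, up to 0.076 with the split made without Mki67. Within that list Atp5a1, the alpha subunit of ATP synthase, averaged 32087 ± 2838 in the high-score libraries and 25016 ± 4122 in the low-score libraries. Cox6c, of complex IV, averaged 4103 ± 1567 in the high-score libraries and 5125 ± 1400 in the low-score libraries. The hypoxia and glycolysis list had a median of 0.061, and its count above 0, 15 of 25, ran from 8 without library 6 to 22 without library 2, and the sign of its median changed in 11 of 40 alternatives. Hk2, a hexokinase, ran from 641 to 2913 in the high-score libraries and from 495 to 2815 in the low-score libraries.

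Markers of glial lineage showed no common order for progenitor genes, and most myelin and astrocyte genes lay below 0, with medians that depended on single libraries or on the test. In the oligodendrocyte progenitor list 10 of 22 genes lay above 0, with a median of -0.0088. The count ran from 3 without library 8 to 16 without library 6, and the sign of the median changed in 10 of 40 alternatives. Bcan (-0.44 ± 0.23), a matrix proteoglycan, and Olig1 (-0.44 ± 0.34), a lineage factor, had negative fold changes, and Sox6 (0.34 ± 0.19) a positive one. Mature oligodendrocyte and myelin genes had 4 of 19 above 0 and a median of -0.26. With 1 library left out the median ran from -0.59 (without library 6) to -0.17 (without library 4) and the count from 2 (without library 8) to 7 (without library 15). Within H3.3K27M libraries the median was -0.82, with 2 of 19 above 0, and within H3.3WT libraries -0.044, with 8 of 19. Mag, a myelin protein, had a log2 fold change of -1.28 ± 0.72. The astrocyte list had 8 of 22 above 0 with a median of -0.14. It was -0.46 without library 6, and it was positive in 2 of 40 alternatives, edgeR (0.074) and DESeq2. S100b, a calcium-binding protein of astrocytes, averaged 10866 ± 4233 in the high-score libraries and 16708 ± 5794 in the low-score libraries. Hepacam, a glial adhesion protein, averaged 6794 ± 3317 in the high-score libraries and 9740 ± 1981 in the low-score libraries. Among neural stem and progenitor genes 10 of 20 lay above 0, and the sign of their median (0.019) changed in 17 of 40 alternatives. Msi2, an RNA-binding protein of stem cells, had a log2 fold change of 0.43 ± 0.17, Sox4 one of 0.70 ± 0.29, and the Notch ligand Dll1 one of -0.67 ± 0.29.

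Neuron genes varied more between libraries than between the sides. The list's mean log2 level ran from 6.63 to 11.23 in the high-score libraries and from 7.22 to 10.00 in the low-score libraries, and 17 of 24 genes lay above 0 with a median of 0.21. Without library 6 the median was -0.0066, and 12 of 24 genes lay above 0. The median was -0.34 with the continuous score and 0.52 with DESeq2, and its sign changed in 6 of 40 alternatives. Camk2a, a kinase of excitatory neurons, held 13577 normalized counts in library 6 and 13.7 to 467 in the other 7 high-score libraries, against 11.3 to 293 in the low-score libraries. With the neuron list's level as a further covariate, limma again called 0 genes, with 432 higher and 346 lower at an unadjusted p under 0.05.

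**Figure D4:**
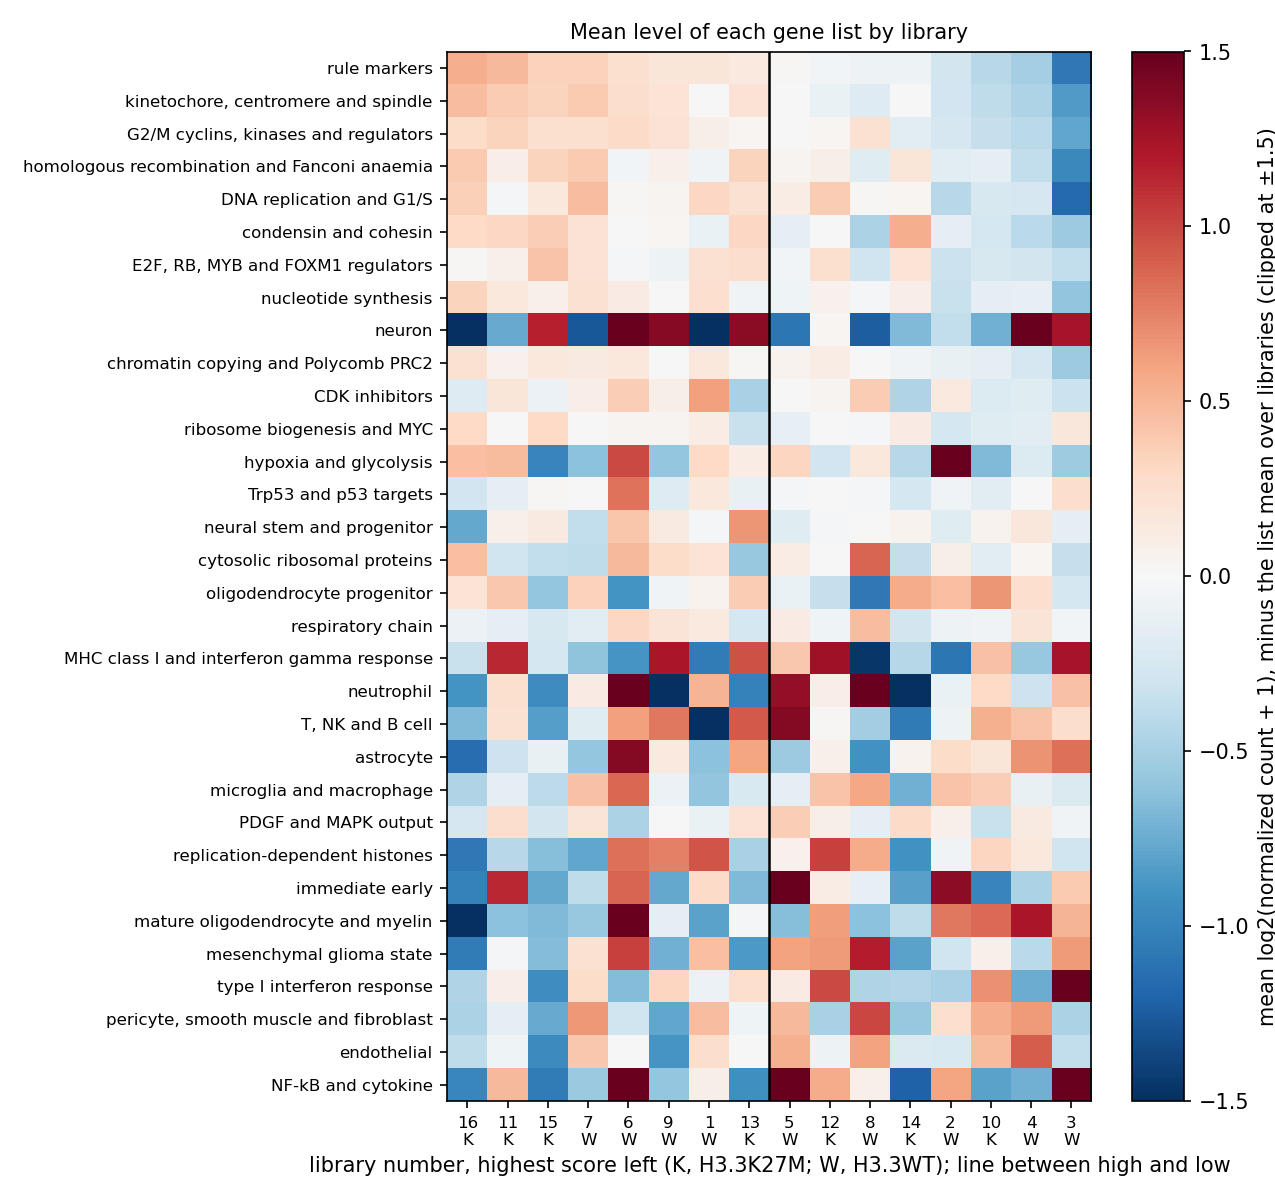
Mean log2(normalized count + 1) of each gene list (y axis), minus its mean over libraries, in each library ordered by score from the highest at left (x axis), with the boundary between high-score and low-score libraries as a black line. The mitosis lists change sign close to the boundary for most libraries, but low-score library 8 lies above the high-score mean for G2/M genes (10.44 against 10.43). Neuron, myelin and inflammatory lists differ mostly between single libraries such as library 6.

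Over both genotypes together, most vessel and immune genes had fold changes below 0. Of 21 endothelial genes 1 lay above 0, with a median of -0.37, and leaving out any 1 library kept the median between -0.51 and -0.27, while with the continuous score it was -0.073. Mfsd2a, a lipid transporter of the blood-brain barrier, averaged 1458 ± 582 normalized counts in the high-score libraries and 2183 ± 888 in the low-score libraries (-0.62 ± 0.28; limma adjusted p = 0.954). Egfl7 and the VEGF receptor gene Flt1 had log2 fold changes of -0.67 ± 0.35 and -0.49 ± 0.26. In the list of pericyte, smooth muscle and fibroblast genes 1 of 19 lay above 0, with a median of -0.33, and 5 did without library 8. The median was -0.13 without library 9 and -0.026 with the continuous score. The exception was the matrix gene Fbln1 (0.60 ± 0.29), and Pdgfrb, the receptor of pericytes, had a log2 fold change of -0.57 ± 0.35. The list levels of these vessel genes overlapped between the sides, with mean endothelial log2 levels of 8.87 to 10.24 in the high-score libraries and 9.46 to 10.74 in the low-score libraries. Of 25 microglia and macrophage genes 4 lay above 0, with a median of -0.14. Without library 1 the count was 13 and the median 0.024, without library 14 the median was -0.29, and its sign changed in 3 of 40 alternatives. C1qa, a complement subunit made by microglia, averaged 5630 ± 1759 in the high-score libraries and 6901 ± 2435 in the low-score libraries. The T, NK and B cell list had 12 of 18 genes measured, 2 of them above 0, and 7 of them above 0 without library 1, and the sign of its median (-0.13) changed in 2 of 40 alternatives. The neutrophil list had 6 of 11 genes measured, 2 of them above 0, and a median of -0.090 whose sign changed in 13 of 40 alternatives. The 5 haemoglobin genes, which mark blood in the tissue, took 0.000611% to 1.41% of reads in the high-score libraries and 0.00223% to 0.398% in the low-score libraries. None of the 5 lay above 0, with a median of -1.21 that was 0.99 with DESeq2.

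Most inflammatory and stress genes had fold changes below 0, with medians that moved with single libraries and with how the split was made. In the NF-kB and cytokine list 1 of 24 genes lay above 0, with a median of -0.41, and 7 did without library 3. The median was -0.18 without library 12 and -0.060 without the 4 libraries nearest the boundary. Tnf ran from 26.7 through 46.1 to 70.5 normalized counts in the high-score libraries, against 20.1, 75.0 and 151 in the low-score libraries. Ccl4, a chemokine of activated myeloid cells, had a log2 fold change of -0.75 ± 0.52. The mesenchymal glioma state list had 4 of 27 above 0 and a median of -0.27. Without library 9 the count was 9 and the median -0.11, without library 6 the median was -0.50, and with the split made without Mki67 it was 0.0092. In that list Fosl1 (-0.75 ± 0.44), S100a6 (-0.82 ± 0.48) and S100a4 (-0.86 ± 0.52) had the smallest p. Of the immediate early genes, which answer to stimuli and to handling of tissue, 5 of 25 lay above 0, and the count ran from 1 without library 10 to 11 without library 5. Their median, -0.24, was -0.53 without library 11 and -0.079 without library 9, and it was positive with the continuous score and without the 4 libraries nearest the boundary (0.11). The type I interferon response had 3 of 24 above 0 with a median of -0.28, which was -0.12 without library 3. There Ifit3 averaged 1235 ± 703 in the high-score libraries and 2676 ± 2782 in the low-score libraries. Its medians were 1289 in the high-score libraries and 1768 in the low-score libraries, where library 3 held 9211. Genes of MHC class I and the interferon gamma response had a median of -0.066, with a count above 0 of 9 of 26 that ran from 3 without library 9 to 18 without library 12, and the sign of that median changed in 11 of 40 alternatives. B2m and Tapbp, of antigen presentation, had log2 fold changes of -0.43 ± 0.38 and -0.40 ± 0.27.

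None of the genes of the model passed the test. Of the 6 on the list 3 lay above 0, with a median of -0.043. Pdgfra averaged 117017 ± 56317 normalized counts in the high-score libraries and 111238 ± 64115 in the low-score libraries, a log2 fold change of 0.0078 ± 0.37 (95% interval -0.77 to 0.79; limma adjusted p = 0.998). The sign of so small a value turned in 18 of 40 alternatives. Pdgfa, whose viral copy drives the tumours and whose reads may come from either copy, averaged 21596 ± 7148 in the high-score libraries and 30449 ± 13267 in the low-score libraries (-0.43 ± 0.28). Nes, for nestin, had a log2 fold change of 0.091 ± 0.24. Genes downstream of PDGF and MAPK signalling had 7 of 18 members above 0 and a median of -0.15, which was -0.036 without library 6. Among them the receptor gene Epha2 (-0.67 ± 0.33) and the feedback inhibitor Spry1 (-0.36 ± 0.21) had negative fold changes. Of 20 Trp53 and p53 target genes 10 lay above 0, with a median of 0.033 that was -0.098 without library 6 and changed sign in 8 of 40 alternatives. Eda2r, a death receptor of the p53 response, held 298 normalized counts in library 6 and 7.13 to 81.8 in the other high-score libraries, against 2.84 to 42.0 in the low-score libraries.

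Within each genotype group the mitosis lists lay in the same order. Among H3.3K27M libraries (4 high and 3 low) the median of the kinetochore, centromere and spindle list was 0.52, and among H3.3WT libraries (4 high and 5 low) it was 0.58. DNA replication and G1/S genes had a median of 0.10 within H3.3K27M, with 28 of 41 above 0, and of 0.59 within H3.3WT, with 41 of 41 above 0. The replication-dependent histones had a median of -1.02 within H3.3K27M and 0.32 within H3.3WT. Immediate early genes had 21 of 25 above 0 within H3.3K27M and 2 of 25 within H3.3WT, and hypoxia and glycolysis genes 23 of 25 and 5 of 25 in the same order. Over all 15003 genes tested, 7368 lay above 0 within H3.3K27M and 7659 within H3.3WT. The highest mean log2 level of the immediate early list lay in library 5 (12.27) and that of the hypoxia list in library 2 (12.79). Both are low-score H3.3WT libraries. Type I interferon genes had 0 of 24 above 0 within H3.3K27M and 13 of 24 within H3.3WT. Microglia and macrophage genes had 4 of 25 above 0 within H3.3K27M and 13 of 25 within H3.3WT. T, NK and B cell genes had 7 of 12 and 2 of 12 in the same order. Endothelial genes had 2 of 21 above 0 within either group. Tested gene by gene, the interaction of score and genotype gave 0 genes at an adjusted p under 0.05 by limma (percent called 0%; no adjusted p below 0.99998). Before adjustment 136 genes had a p under 0.05 (0.906%), and 0 adjusted calls were made by edgeR. These list differences therefore describe the 7 and 9 libraries, and no difference between the genotypes was shown.

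**Figure D5:**
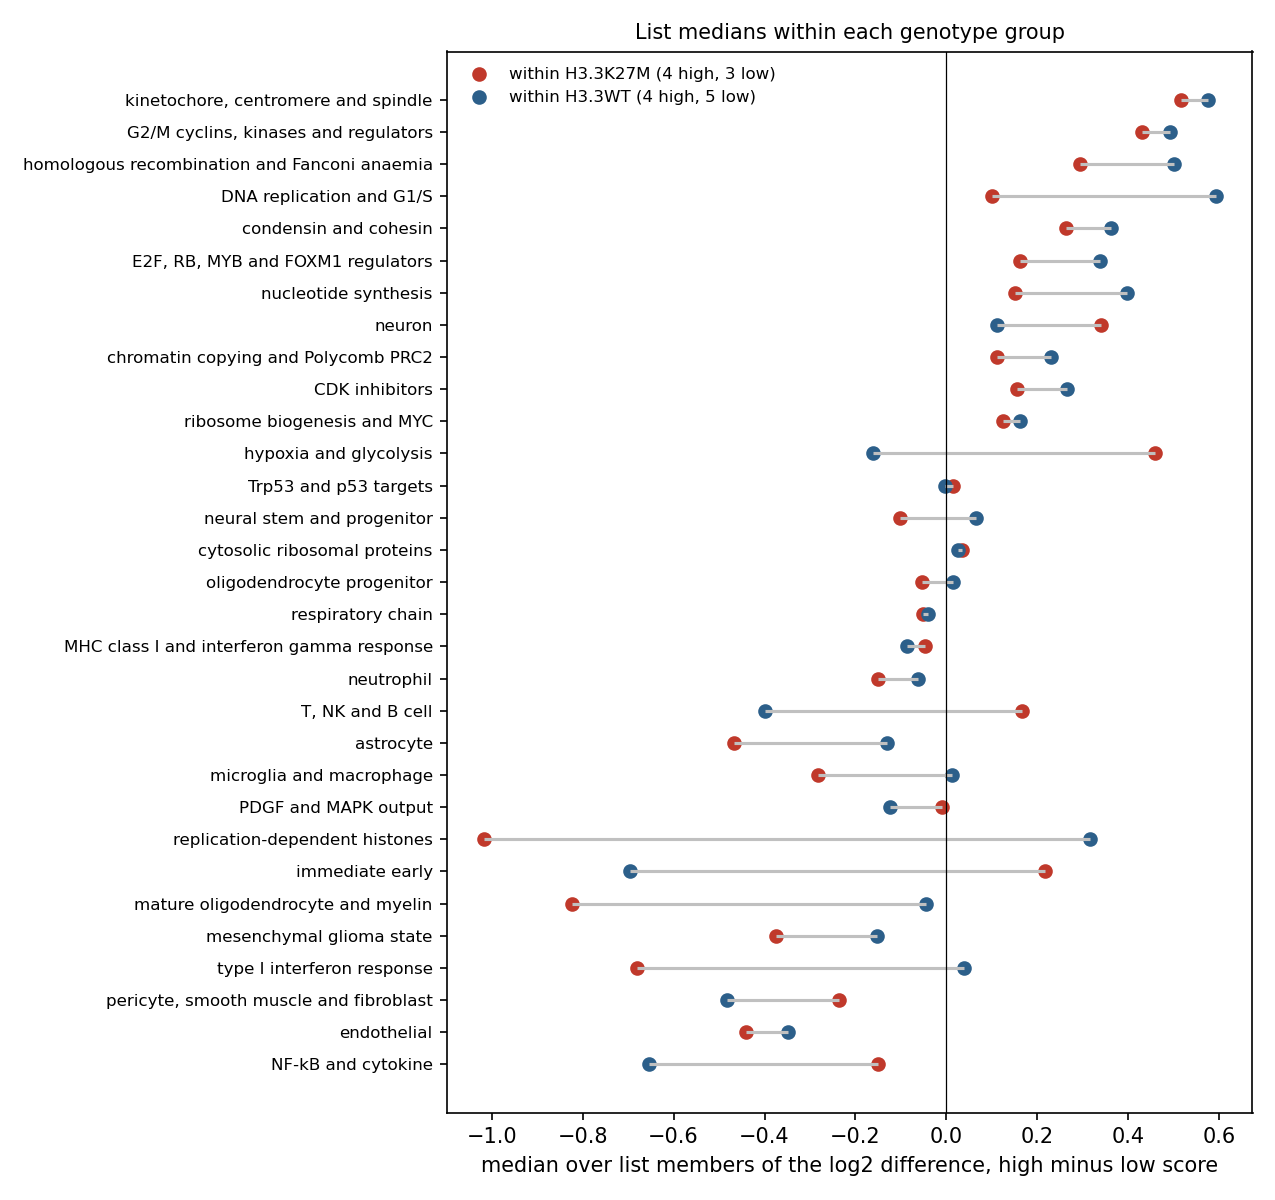
Median over list members of the log2 difference, high minus low score (x axis), within H3.3K27M libraries (red, 4 high and 3 low) and within H3.3WT libraries (blue, 4 high and 5 low) for each gene list (y axis). The kinetochore medians lie close together at 0.52 and 0.58, while those of the replication-dependent histones lie at -1.02 and 0.32.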

How the data were processed

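Tumour RNA (Qiagen RNeasy extraction, TruSeq mRNA library preparation) was read on a HiSeq instrument as single reads of 50 bp, per the labels. The submitters' processing notes name STAR 2.7, HTSeq, DESeq2 and mm10. What each was used for, with which settings and strand, is not given in the sources used here. The 16 library columns of the table hold a signal that is never negative, normalized by the authors before it was deposited, and the text calls these values normalized counts. All deposited values above 0 (100%) were whole multiples of the smallest one of their library (within 0.01 reads), so reads could be recovered for count tests. A count of 0 allows 3 reads, for counting error only. The number of other columns of per-sample values was 0. Repeats of an Ensembl ID (208 of 23563 lines) were dropped, leaving 23355 genes.

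The main test was limma 3.58.1 on log2(value + 1), with a mean-variance trend, genotype group as covariate, Benjamini-Hochberg adjustment and a threshold of 0.05. It covered every gene with 10 or more normalized counts in 7 or more libraries, apart from the 4 score genes. Fold changes are high minus low score, and on this scale changes of low genes come out too small. p-values measure the spread between these libraries, which the design text calls independent tumours. Alternatives included edgeR 4.0.16 and DESeq2 1.42.0 on the recovered reads (R 4.3.3), and the limma step was tested on simulated counts. Exon lengths and GC content came from GENCODE M21. The members, the 33 gene lists and the tests were chosen with earlier results of these data known. Lists were described by counts and medians, without a set test. The rule for named genes took the score genes, the 8 smallest p in each direction outside the cell cycle lists, up to 4 genes a list by smallest p, and the model genes, and the text gives a part of them; results for some genes the rule takes are not reported here.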

Additional observations from a re-analysis of the deposited data

Results flagged for a closer look

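In 204 sets of 8 libraries (102 genes on either side of the split), 9 held a single library whose gap to the nearest of the others was large for the range of the set, and chance alone flags about 1 in 20 sets. On the high side, Fam83d was low in library 6 (608 normalized counts, the others 914 to 1085), and Nop16 was low in library 13 (891, the others 1391 to 2034). Also on the high side, library 16 was low for Hepacam (1641, the others 5132 to 13495) and for Chst8 (11.3, the others 52.4 to 158). On the low side, Mboat2 was low in library 12 (2169, the others 3474 to 4834), and Exo1 was low in library 3 (175, the others 405 to 820.3). Cdc20 and Hk2 were high in low-side library 2 (2828, the others 1820 to 2137, for Cdc20, and 2815, the others 495 to 969, for Hk2). Dek was low in low-side library 8 (1585, the others 3156 to 5237), which is also the library with the fewest reads.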

How the results depend on the processing

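Of 40 alternatives, all but DESeq2 and the continuous score called 0 genes in either direction, among them edgeR and limma voom. Scores made without Top2a, Cdk1 or Ccnb1, or from values scaled by edgeR's TMM method, repeated the main split. Each gave 395 genes higher and 301 lower at an unadjusted limma p under 0.05. A looser filter left the fold changes as they were. None of these could change a sign, and every count out of 40 includes them. DESeq2's Wald test called 21 higher and 1 lower, of which 7 and 1 lay outside the cell cycle lists. With the score as a continuous measure limma called 48 and 2, of which 9 and 2 lay outside those lists. The lists do not hold every gene known from division: Ticrr, Fam83d and Prr11 were among the 7, and Kif14 and Prr11 among the 9. Calls outside the lists are therefore not all outside the cell cycle. With the continuous score, 675 and 459 genes had an unadjusted p under 0.05. That count was 626 higher with limma voom and 638 lower when the split was made without Mki67. With each library left out in turn, adjusted calls stayed at 0, and the unadjusted counts ran from 277 (without library 10) to 646 (without library 14) higher and from 216 to 426 lower. The cause was not tested.

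The 98 genes named with a test kept their sign in 3894 of 3915 values. Pdgfra and Nes hold the 21 exceptions. Most of the 98 were named for a small p in these same data, so their stable signs support nothing further. With each library left out in turn, Pdgfra ran from -0.20 to 0.20 and Nes from -0.022 to 0.26. Pdgfra had log2 fold changes of -0.0031 with upper quartile scaling, -0.017 with the split made within each group, -0.058 with the continuous score, -0.039 without the 4 libraries nearest the boundary and -0.36 with the split made without Mki67. It had -0.061 with a microglia covariate, -0.087 and -0.018 with the exon length or GC trend removed, and -0.19 without libraries 3 and 8 together, an alternative chosen after seeing the data. Nes had -0.17 with the split made without Mki67. The medians of the mitosis, replication, repair, condensin, endothelial, pericyte, NF-kB, myelin, type I interferon and PDGF lists kept their sign in all 40 alternatives. Signs of medians changed for the astrocyte, immediate early and T, NK and B cell lists (2 of 40 each), the mesenchymal list (1), the replication-dependent histones (1) and the microglia list (3). They also changed for the respiratory chain (4), haemoglobin (4), model genes (4), neuron (6), p53 (8), oligodendrocyte progenitor (10), MHC class I (11), hypoxia (11), ribosomal protein (12), neutrophil (13) and neural stem (17) lists. The G1/S median was 0.23 without library 3, and the endothelial and pericyte medians were -0.073 and -0.026 with the continuous score. The number of H3.3K27M libraries on the high side was 3 with the score made without Mki67 and 4 otherwise. No paired analysis was possible because no library can be tied to a numbered label. Library 8, with 11439144 reads, limits what is known of low genes.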
